A study of Cricetulus griseus with 27 samples.

Results

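Of the 4815 mature miRNA entries in the deposited count table, 3 are described here: mmu-miR-708-5p, cgr-miR-151-3p and cgr-miR-28-3p, mature arms of the related hairpins miR-708, miR-151 and miR-28. They were taken by name and chosen by their levels in earlier results on these libraries: both 3p strands for osmotic exosomes against osmotic MPs, and mmu-miR-708-5p for standard exosomes against standard cells. Those contrasts are given as values without a test. Small RNA had been sequenced from CHO-K1, an ovary-derived Chinese hamster line used to produce recombinant proteins, and from the vesicles it sheds. MPs (microparticles) bud from the plasma membrane, and exosomes are smaller vesicles of endosomal origin.

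A miRNA hairpin is cut into a 5p and a 3p strand, and the strand loaded onto an Argonaute protein guides it to partly complementary messenger RNAs. The miR-28, miR-151 and miR-708 hairpins are counted as a family and are held to descend from LINE-2, an old mobile element, as are miR-95 and miR-325. The 5p strands of human and mouse miR-28 and miR-708 start with the same seed, the stretch that picks targets, while miR-28-3p and miR-151-3p come from the opposite strand and have seeds of their own. In human liver tumour cells miR-151 is expressed with its host gene, which codes for focal adhesion kinase, and promotes migration; in mouse cells miR-708 is transcribed with its host gene under CHOP, a factor of the unfolded protein response. In the RefSeq annotation of the Chinese hamster assembly CriGri-PICRH-1.0, Mir28 lies within Lpp, Mir151 within Ptk2 and Mir708 within Tenm4, all protein-coding.

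The 27 libraries formed 9 groups of 3, called biological replicates by the labels: exosomes, MPs and cells from osmotic, ammonia and standard cultures of the same line. Osmotic cultures received NaCl to 60 mM at the start, which added 120 mOsm/L, and ammonia cultures NH4Cl to 9 mM, both salts dissolved in PBS. Standard cultures received neither, and every culture held 15 mL of medium with 6 mM glutamine and was harvested on day 3. The TruSeq Small RNA kit served for the 18 stressed libraries, in 1 pool, and the NextFlex Combo-Seq kit for the 9 standard ones, in another, so stress cannot be told apart from kit and pool wherever both are used. A vesicle fraction is the output of the whole culture, and the labels used here give no purity measure for it.

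Libraries held 26516 to 158836 counts in osmotic exosomes, 378397 to 1103990 in osmotic MPs and 8219782 to 10374430 in osmotic cells. The ranges were 116689 to 203816, 1962086 to 2967003 and 5236151 to 6841978 in ammonia exosomes, MPs and cells. In standard exosomes, MPs and cells they were 2284857 to 2726446, 818539 to 1253633 and 132154 to 180764. A single read was therefore worth much more CPM (a count scaled to a library total of 1e6) in stressed exosomes than in stressed cells. A level in CPM is a share of a library, so a lower level and more of everything else cannot be told apart, and neither can fewer vesicles and less RNA in each. Of 13 marker miRNAs of blood, muscle, liver, neural and epithelial cells, 5 to 12 had no reads in a group. That count includes miR-206-3p, which has no entry and so could hold no reads. Nearly all marker reads were of miR-486-5p, which averaged 112 CPM in osmotic exosomes and 861 to 3169 CPM in the other groups; its part in the results was not tested.

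**Figure D1:**
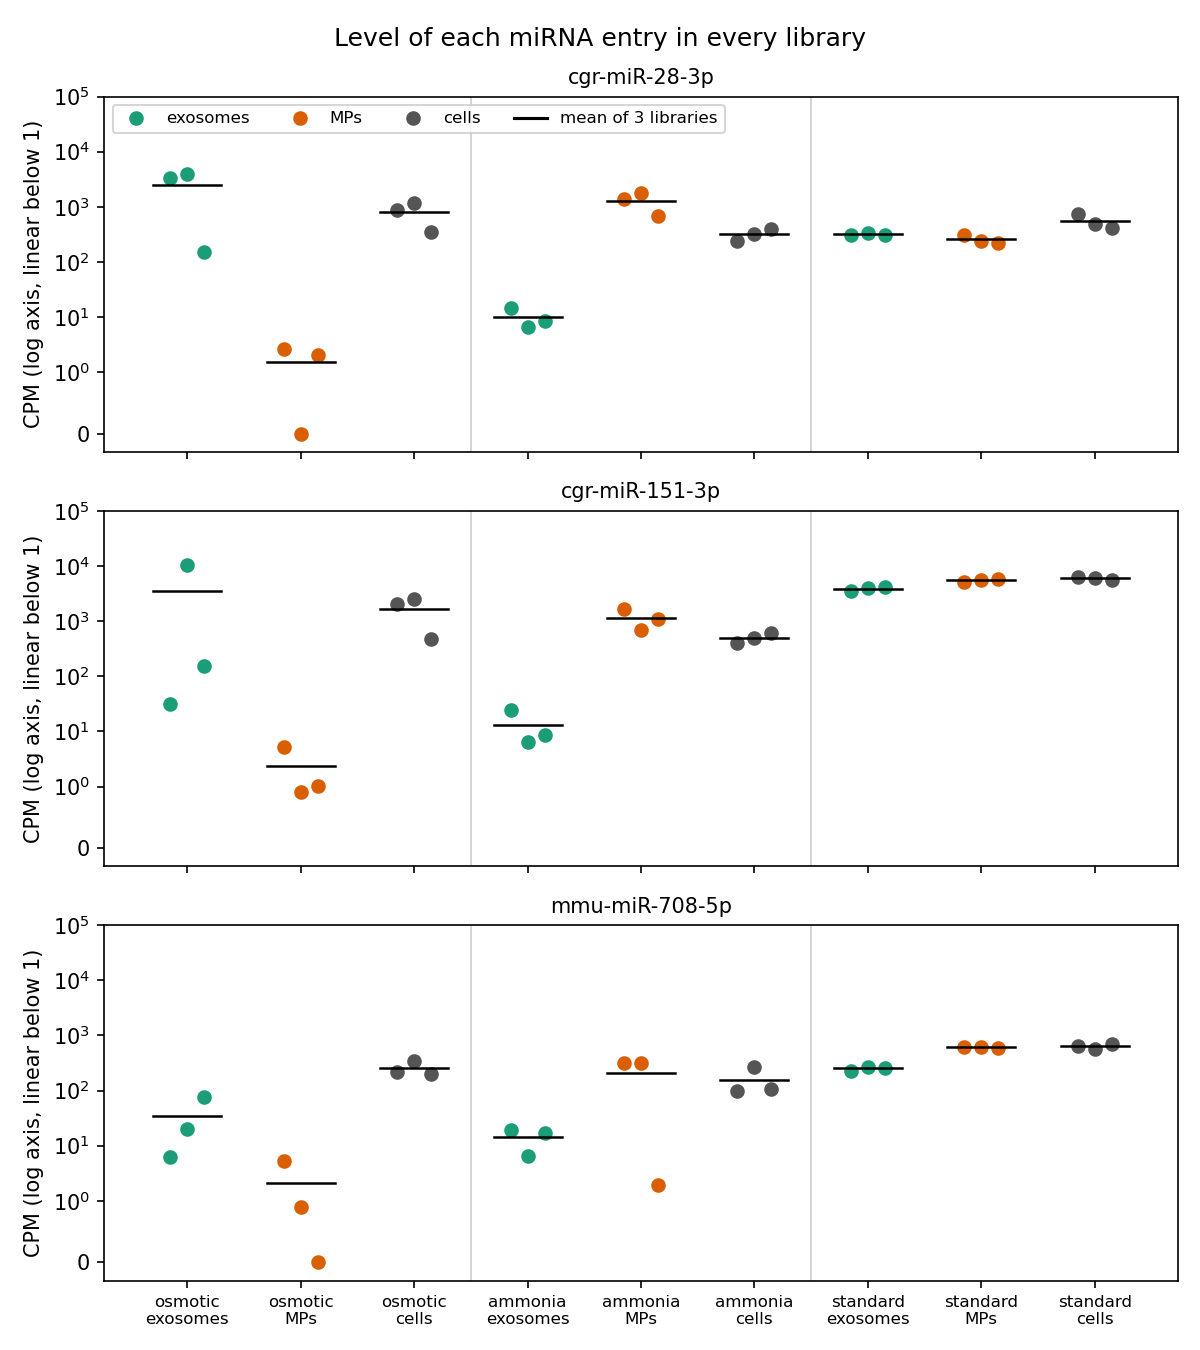
Level of the 3 miRNAs in CPM, on a log axis that is linear below 1, in each of the 27 libraries; a point is 1 library and a line the mean of 3. All 3 miRNAs lie under 6 CPM in every osmotic MP library, and the ammonia exosome libraries lie between 6 and 25 CPM.

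The level of cgr-miR-28-3p was 3299, 3921 and 150.9 CPM in osmotic exosomes, 2.64, 0 and 2.06 CPM in osmotic MPs, and 873, 1192 and 350.4 CPM in osmotic cells. In ammonia culture it was 14.7, 6.50 and 8.57 CPM in exosomes, 1411, 1790 and 674 CPM in MPs, and 237, 323 and 399 CPM in cells. In standard culture it was 309, 329 and 309.7 CPM in exosomes, 314, 243 and 219 CPM in MPs, and 749, 492 and 418 CPM in cells. Vesicles thus stood on opposite sides of their cells in the stressed cultures: osmotic MPs and ammonia exosomes lay below every other library, while ammonia MPs lay above all ammonia cells. The third osmotic exosome library rested on 4 reads, and the other two on 524 and 196. By group mean the order ran from osmotic exosomes (2457 ± 2021 CPM, SD, n = 3 here and below) through ammonia MPs (1291 ± 568), osmotic cells (805 ± 425), standard cells (553 ± 174), ammonia cells (319.7 ± 81.2), standard exosomes (316 ± 11.3) and standard MPs (259 ± 49.5) to ammonia exosomes (9.93 ± 4.27) and osmotic MPs (1.57 ± 1.39). The first 4 neighbours in that order overlapped in range, as did ammonia cells, standard exosomes and standard MPs.

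The level of cgr-miR-151-3p was 31.5, 10342 and 150.9 CPM in osmotic exosomes, 5.29, 0.906 and 1.03 CPM in osmotic MPs, and 2001, 2479.5 and 465 CPM in osmotic cells. In ammonia culture it was 24.5, 6.50 and 8.57 CPM in exosomes, 1624, 682 and 1077 CPM in MPs, and 399, 483 and 611 CPM in cells. In standard culture it was 3580.5, 3991 and 4069.5 CPM in exosomes, 5027, 5629 and 5735 CPM in MPs, and 6386 (844 reads), 5947 and 5673 CPM in cells. The osmotic exosome libraries were the least alike of any group: the second held 517 reads of it, the first 5 and the third 4. Its order by group mean began with standard cells (6002 ± 360 CPM), standard MPs (5464 ± 382) and standard exosomes (3880 ± 263), then osmotic exosomes (3508 ± 5919), osmotic cells (1648 ± 1053), ammonia MPs (1128 ± 473) and ammonia cells (498 ± 107), and ended with ammonia exosomes (13.2 ± 9.87) and osmotic MPs (2.41 ± 2.49). Standard cells and MPs overlapped, the range of osmotic exosomes covered several neighbours, and osmotic cells overlapped ammonia MPs.

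The level of mmu-miR-708-5p, the 5p strand of its hairpin, was 6.30, 20.005 and 75.4 CPM in osmotic exosomes, 5.29, 0.906 and 0 CPM in osmotic MPs, and 219, 344 and 197 CPM in osmotic cells. In ammonia culture it was 19.6, 6.50 and 17.1 CPM in exosomes, 311, 313 and 1.95 CPM in MPs, and 96.8, 269 and 107 CPM in cells. In standard culture it was 224, 271 and 258 CPM in exosomes, 617, 610.1 and 582 CPM in MPs, and 651, 575 and 684 CPM in cells. The third ammonia MP library held 5 reads of it where the other two held 922 and 615. By group mean the order was standard cells (637 ± 55.8 CPM), standard MPs (603 ± 18.8), osmotic cells (253 ± 79.3), standard exosomes (251 ± 24.5), ammonia MPs (209 ± 179), ammonia cells (157 ± 96.7), osmotic exosomes (33.9 ± 36.6), ammonia exosomes (14.4 ± 6.97) and osmotic MPs (2.06 ± 2.83). Standard cells and MPs overlapped, as did osmotic cells, standard exosomes, ammonia MPs and ammonia cells in turn, and then osmotic and ammonia exosomes.

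Together the 3 entries made up 0.5999% ± 0.733 of counts in osmotic exosomes, 0.000604% ± 0.000625 in osmotic MPs and 0.271% ± 0.154 in osmotic cells. The shares in ammonia exosomes, MPs and cells were 0.00376% ± 0.00199, 0.263% ± 0.0808 and 0.0975% ± 0.0211. In standard exosomes, MPs and cells they were 0.445% ± 0.0290, 0.633% ± 0.0319 and 0.719% ± 0.0528.

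The contrasts that chose the entries are described without a test. Over the 3 libraries of each group, osmotic exosomes held 724 reads of cgr-miR-28-3p and osmotic MPs 3, a ratio of 2518 after scaling to the group totals (95% counting interval 858 to 12239). For cgr-miR-151-3p the reads were 526 in osmotic exosomes and 4 in osmotic MPs, a ratio of 1372 (533 to 5054), of which the second exosome library held nearly all. For mmu-miR-708-5p they were 4 in osmotic exosomes and 3 in osmotic MPs, a ratio of 13.9 (2.35 to 94.97). The groups of mmu-miR-708-5p did not overlap, yet each library held 2 reads or fewer. Standard exosomes averaged 0.394 times the level of standard cells for mmu-miR-708-5p, 0.647 times for cgr-miR-151-3p and 0.570 times for cgr-miR-28-3p. The libraries did not overlap for any of the 3. For this and the other comparisons below, how many of all entries had libraries without overlap was not counted. Copies made by PCR can count as several reads, so the intervals here cover counting error alone.

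How the content of osmotic vesicles differed from that of the cells was tested with edgeR's quasi-likelihood test, with Benjamini-Hochberg adjustment over all entries tested and a call at an adjusted p under 0.05. Osmotic libraries also took part in the choice of the entries, so these comparisons are not independent of it. In osmotic MPs all 3 miRNAs fell against osmotic cells, with an adjusted p of 0.00948 for cgr-miR-28-3p, 0.0106 for cgr-miR-151-3p and 0.0169 for mmu-miR-708-5p. The MPs held 3, 4 and 3 reads of them and the cells 20685, 41807 and 6687. Per count of the group totals, the ratio of MPs to cells was 0.00159 for cgr-miR-28-3p (95% counting interval 0.000327 to 0.00464), 0.00105 for cgr-miR-151-3p (0.000285 to 0.00268) and 0.00491 for mmu-miR-708-5p (0.00101 to 0.0144). The background for these calls was high: 51.5% of the 332 entries tested passed, 161 of the 171 downward, and the median log2 fold change of all entries tested was −7.05. The calls rested on single libraries too. Without the second osmotic MP library 0 of the 3 passed (adjusted p = 0.0508, 0.0521 and 0.0764), and 1 entry of all tested did. Without the third library, cgr-miR-28-3p alone of the 3 passed, beside 41 of all entries. With no filter on low counts none of the 3 did, beside 17 of all entries.

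In osmotic exosomes against osmotic cells 0 of the 3 miRNAs passed edgeR's test, nor at an unadjusted p under 0.05, and 1 of 3 passed with DESeq2 (cgr-miR-28-3p, adjusted p = 0.0148). The log2 fold change of cgr-miR-28-3p was +2.05 ± 1.57 (SE), that of cgr-miR-151-3p +1.08 ± 1.64, and that of mmu-miR-708-5p −3.07 ± 1.74. Without the second osmotic exosome library the value of cgr-miR-151-3p turned to −4.45. The share of entries called was 0% of 332 with edgeR, against 79 entries at an unadjusted p under 0.05 and 18 with DESeq2. The median of all entries tested was −3.75.

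In ammonia MPs against ammonia cells, cgr-miR-28-3p stood at +2.28 ± 1.59 on the log2 scale (adjusted p = 0.317), cgr-miR-151-3p at +1.46 ± 1.66 (0.627) and mmu-miR-708-5p at +0.61 ± 1.53 (0.876). The MP libraries lay above every cell library for both 3p strands and overlapped for mmu-miR-708-5p. Of the 3, 0 passed with edgeR, 0 at an unadjusted p under 0.05 and 0 with DESeq2. With edgeR 32.5% of all entries tested passed, 103 of 108 downward, around a median of −1.43. Over all entries 135 stood at an unadjusted p under 0.05 and 79 passed with DESeq2. A fit of these 2 groups alone called cgr-miR-28-3p (+2.38, adjusted p = 0.0308), beside 84 of all entries.

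Ammonia exosomes held 5 reads of cgr-miR-28-3p, 7 of cgr-miR-151-3p and 7 of mmu-miR-708-5p over 3 libraries. Against ammonia cells the log2 fold changes were −4.75 ± 1.84 for cgr-miR-28-3p (adjusted p = 0.0673), −5.02 ± 1.97 for cgr-miR-151-3p (0.0684) and −3.15 ± 1.71 for mmu-miR-708-5p (0.145). No exosome library overlapped the cell libraries for any of the 3, a trait that was not counted over all entries. With edgeR 0 of 3 passed, beside 9.04% of all entries tested. At an unadjusted p under 0.05 there were 2 of 3, beside 143 of the 332 entries. With DESeq2 0 of 3 passed, beside 42 entries. The median of all entries tested was −5.23, lower than any of the 3, and it moved by up to 3.51 with the scaling, and mmu-miR-708-5p stood above 0 under TMMwsp scaling (+0.48) and the authors' scaling (+0.42). Against ammonia MPs the values were −7.03 ± 2.02, −6.48 ± 2.10 and −3.76 ± 1.75 in the same order (adjusted p = 0.102, 0.128 and 0.164). There 0 of 3 passed with edgeR, beside 0.301% of all entries tested. At an unadjusted p under 0.05 there were 3 of 3, beside 94 of the 332 entries. With DESeq2 2 of 3 passed, beside 63 entries. Exosome and MP libraries did not overlap for both 3p strands, and the third MP library overlapped for mmu-miR-708-5p.

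**Figure D2:**
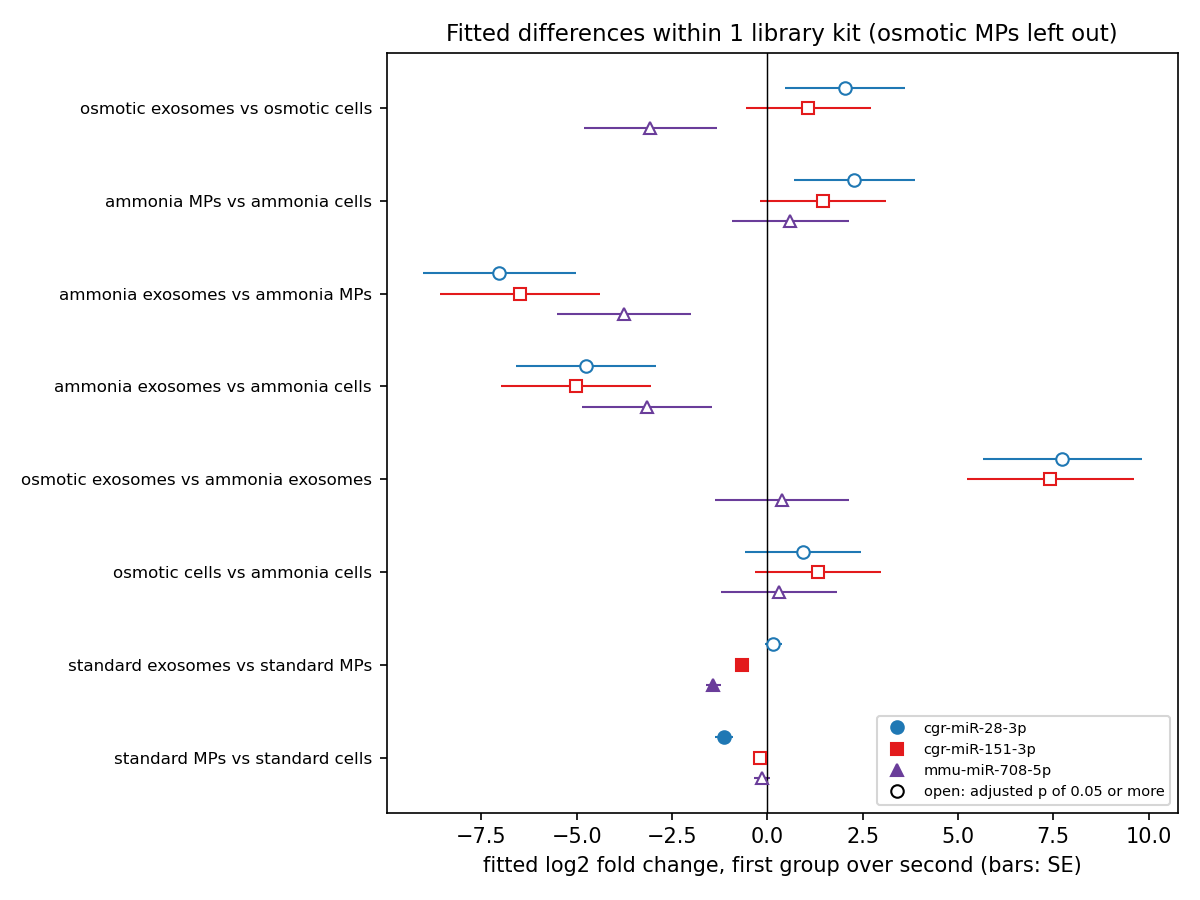
Log2 fold change of each miRNA fitted by edgeR, first group over second, with its SE; filled symbols have an adjusted p under 0.05. The SE is above 1.5 in the stressed libraries and under 0.25 in the standard ones; comparisons with osmotic MPs, where each miRNA had 3 or 4 reads, are left out.

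The stresses were compared inside 1 kit and 1 pool. Osmotic cells averaged 2.52 times the level of ammonia cells for cgr-miR-28-3p, 3.31 times for cgr-miR-151-3p and 1.61 times for mmu-miR-708-5p, but the libraries overlapped for each and 0 of 3 passed (adjusted p = 0.997 for all; 0 at an unadjusted p under 0.05, 0 with DESeq2). Over all entries 0% passed with edgeR, 13 entries stood at an unadjusted p under 0.05 and 1 passed with DESeq2. The osmotic MP libraries also served in the choice of both 3p strands, so the next values are not independent of it. In osmotic MPs against ammonia MPs all 3 fell, with an adjusted p of 0.0296 for both 3p strands and 0.0338 for mmu-miR-708-5p. The reads were 3, 4 and 3 in osmotic MPs and 9428, 8924 and 1542 in ammonia MPs, a ratio of 0.000972 for cgr-miR-28-3p (95% counting interval 0.000200 to 0.00284), 0.00137 for cgr-miR-151-3p (0.000373 to 0.00351) and 0.00594 for mmu-miR-708-5p (0.00122 to 0.0174). Here 19.3% of all entries tested passed, 51 of 64 downward, and the median of all was 0. An entry without reads in either MP group also takes a fold of 0, as mmu-miR-708-3p did. Such entries were not counted, so the median cannot show whether the entries with reads shifted together. The libraries overlapped for mmu-miR-708-5p alone, through the third ammonia MP library. Without the second or the third osmotic MP library 0 of the 3 passed, and without the first mmu-miR-708-5p did not (adjusted p = 0.0628). None passed in a fit of these groups alone.

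In osmotic exosomes against ammonia exosomes cgr-miR-28-3p stood at +7.74 ± 2.08 on the log2 scale and cgr-miR-151-3p at +7.42 ± 2.19 (adjusted p = 0.154 each), with no overlap of the libraries, and mmu-miR-708-5p at +0.38 ± 1.75 (adjusted p = 1.00), a value that turned negative under RLE, TMMwsp and the authors' scaling. With edgeR 0 of 3 passed (2 at an unadjusted p under 0.05) and with DESeq2 2 of 3, beside 0% of all entries with edgeR, 61 at an unadjusted p under 0.05 and 34 with DESeq2. The value of cgr-miR-151-3p rested on the second osmotic exosome library, which held 517 of its 526 reads: without it the value was +2.30 (adjusted p = 0.908). These exosome libraries had served in the choice as well. A test of the difference itself asked whether MPs minus cells differed between osmotic and ammonia culture. The difference was −10.4 ± 2.62 for cgr-miR-28-3p, −10.2 ± 2.78 for cgr-miR-151-3p and −6.97 ± 2.45 for mmu-miR-708-5p on the log2 scale, with the few reads of osmotic MPs, which had served in the choice, in each. The adjusted p values were 0.0779, 0.0779 and 0.0848, so 0 of 3 passed with edgeR, beside 0.301% of all entries. At an unadjusted p under 0.05 there were 3 of 3, beside 89 of the 332 entries, and DESeq2 was not run on this difference. For exosomes minus cells, again with osmotic libraries used in the choice, the difference was +6.80 ± 2.41 for cgr-miR-28-3p and +6.10 ± 2.53 for cgr-miR-151-3p (edgeR adjusted p = 0.525 each), and +0.08 ± 2.30 for mmu-miR-708-5p (adjusted p = 1.00).

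In standard culture the fractions were compared within the other kit. In MPs against cells cgr-miR-28-3p fell (log2 fold change −1.14 ± 0.24, adjusted p = 0.00283), with all 3 MP libraries below all 3 cell libraries, which held 63 to 99 reads of it. The values of cgr-miR-151-3p (−0.18 ± 0.18, adjusted p = 0.449) and mmu-miR-708-5p (−0.14 ± 0.21, 0.640) did not pass, and both changed sign under some settings. So 1 of 3 passed, beside 31.3% of the 351 entries tested and a median of 0.07. In exosomes against MPs, which share the exosome libraries with a contrast that chose the entries, mmu-miR-708-5p fell (−1.41 ± 0.21, adjusted p = 5.84e-04) and cgr-miR-151-3p fell (−0.65 ± 0.18, 0.0136). No exosome library of either overlapped the MPs. The ranges of cgr-miR-28-3p overlapped (+0.15 ± 0.23, adjusted p = 0.652). Thus 2 of 3 passed, beside 29.6% of all entries and a median of 0.01. The call of cgr-miR-151-3p was lost without standard MP library 2 (adjusted p = 0.0573) or 3 (0.0661), without standard exosome library 1 (0.0508), and with the authors' library sizes (0.0593).

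Stressed against standard culture can be given as levels and calls, but each stands for stress and kit together, so no fold is given. In osmotic cells 0 of the 3 passed against standard cells, beside 18.1% of the 420 entries tested, and in ammonia cells 0 of 3, beside 24.5%. At an unadjusted p under 0.05 there were 0 of 3 in each, beside 143 entries in osmotic and 161 in ammonia cells. With DESeq2 0 of 3 passed in each, beside 73 and 97 entries. In CPM, cgr-miR-151-3p and mmu-miR-708-5p were lower in every osmotic cell library than in every standard one. All 3 were lower in CPM in every ammonia cell library than in every standard one. How many of all entries stood apart in this way was not counted. After the scaling of the fit, cgr-miR-28-3p instead stood higher in ammonia cells than in standard cells, so its direction depended on the scaling. A fit of the cell groups alone called 2 of 3 in osmotic cells and 2 of 3 in ammonia cells. The shares above are those of the main fit. Across the alternatives the count over all entries ran from 36 to 191 in osmotic cells (76 in the main fit). In ammonia cells it ran from 67 to 171 (103 in the main fit). In osmotic MPs all 3 were lower than in standard MPs (edgeR adjusted p = 0.00176 for cgr-miR-28-3p, 1.97e-04 for cgr-miR-151-3p and 0.00164 for mmu-miR-708-5p), beside 46.2% of entries. DESeq2 called 2 of 3 there, beside 195 entries. Both 3p strands had been chosen with the osmotic MP libraries, so their values here are not independent of the choice. In ammonia MPs cgr-miR-28-3p was higher (adjusted p = 0.00961) and the other two did not pass, beside 44.8%. In osmotic exosomes cgr-miR-28-3p was higher than in standard exosomes (adjusted p = 0.0458) and the other two did not pass, beside 16.2%. It had been chosen with these osmotic libraries, and the third of them, at 150.9 CPM on 4 reads, lay below every standard exosome library. In ammonia exosomes cgr-miR-28-3p (adjusted p = 0.0141) and cgr-miR-151-3p (0.00249) were lower and mmu-miR-708-5p did not pass (0.0611), beside 33.1%. The call in ammonia MPs was lost without any 1 of the standard MP libraries, and that in osmotic exosomes without any 1 of the standard exosome libraries or without the first osmotic one. Other scalings took the counts in ammonia MPs, osmotic exosomes and ammonia exosomes to 0.

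The reads found in each vesicle library were set beside those it would hold at the mean level of cells of its own culture. Osmotic MP libraries held 1, 0 and 2 reads of cgr-miR-28-3p where 305, 889 and 783 were expected, and 2, 1 and 1 reads of cgr-miR-151-3p where 624, 1820 and 1604 were expected. For mmu-miR-708-5p they held 2, 1 and 0 where 95.8, 279 and 246 were expected. No osmotic MP library held more than 2 reads of any of the 3. Ammonia exosomes held 3, 1 and 1 reads of cgr-miR-28-3p against 65.2, 49.2 and 37.3 expected and 5, 1 and 1 of cgr-miR-151-3p against 101, 76.6 and 58.1. For mmu-miR-708-5p 4, 1 and 2 reads were found against 32.1, 24.2 and 18.4. Ammonia MPs held 2.11 to 5.60 times the expected reads of cgr-miR-28-3p and 1.37 to 3.26 times those of cgr-miR-151-3p.

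**Figure D3:**
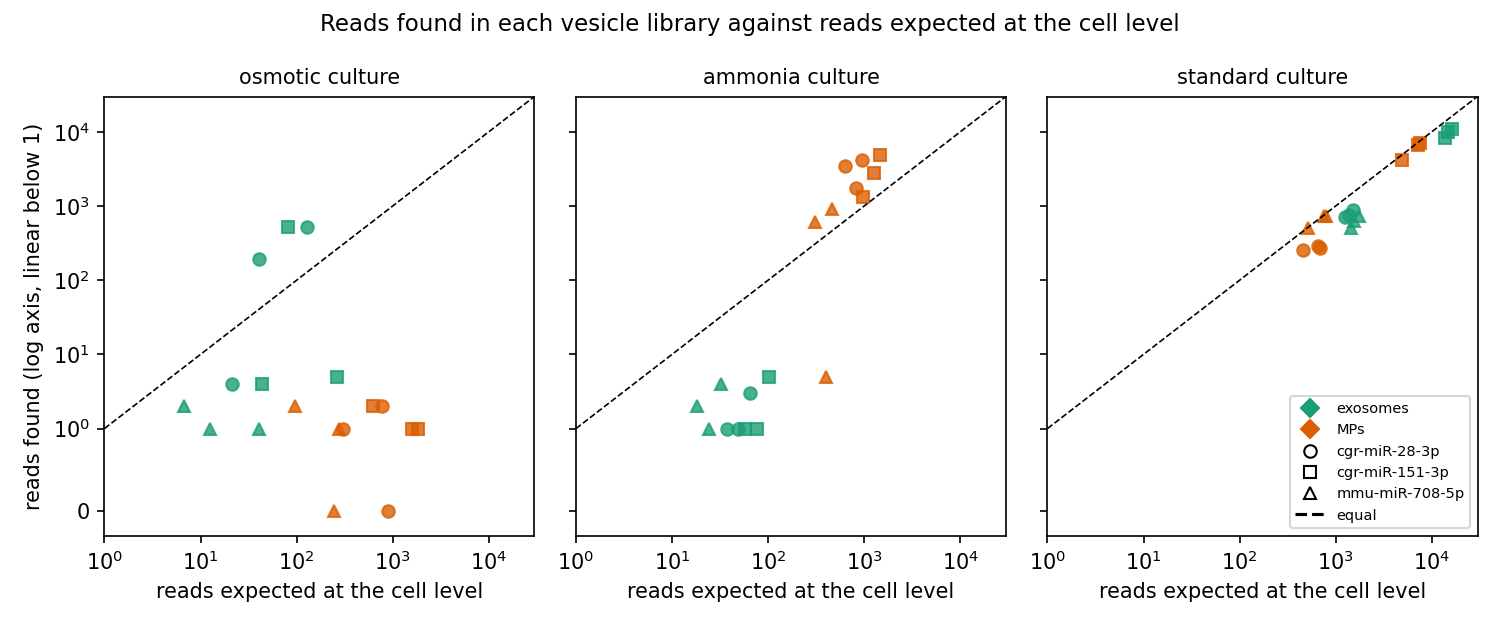
Reads found in each vesicle library (log axis, linear below 1) against the reads expected at the mean level of cells of the same culture (log axis), for the 3 miRNAs; the dashed line marks equality. Osmotic MPs and ammonia exosomes lie far below the line, ammonia MPs above it except for 1 library of mmu-miR-708-5p, osmotic exosomes on both sides (0.0191 to 6.27 times the expected reads), and standard vesicles below it (0.351 to 0.969 times).

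Such gaps were common among other entries in the same libraries. Of the 212 entries with at least 20 reads expected in every osmotic MP library, 107 (50.5%) had 5 reads or fewer in all 3 libraries, as had all 3 miRNAs here. In ammonia exosomes 45 of 138 (32.6%) did, cgr-miR-28-3p and cgr-miR-151-3p among them, and mmu-miR-708-5p was not counted because 1 library expected fewer. In ammonia MPs 123 of 302 (40.7%) did, and none of the 3 miRNAs. In osmotic exosomes 4 of 92 (4.35%) did, in standard exosomes 28 of 335 (8.36%) and in standard MPs 6 of 258 (2.33%). This count was added after the values were seen.

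The level of the opposite strand of the same hairpin did not serve in the choice. The 3p reads set beside it in osmotic exosomes and MPs did, so the strand contrast there is not independent of the choice. In several stressed vesicle libraries the reads fell almost all on 1 strand. In ammonia exosomes, where cgr-miR-151-3p had 5, 1 and 1 reads, cgr-miR-151-5p had 2173, 928 and 4042 reads (10662, 6032 and 34639 CPM). It stood at 4162, 4392 and 5425 CPM in ammonia cells. In osmotic MPs cgr-miR-151-5p had 1378, 3876 and 9 reads, against 2, 1 and 1 of cgr-miR-151-3p. In osmotic exosomes the strands were the other way round in 1 library: the second held 517 reads of cgr-miR-151-3p and 30 of cgr-miR-151-5p. For the miR-28 hairpin, osmotic exosomes held 524, 196 and 4 reads of the 3p strand and 1, 3 and 1 of the 5p strand, with the species entries that name a strand summed. Entries that name none, such as mmu-miR-28c, cgr-miR-708 and hsa-miR-151b, are left out of these sums. The second osmotic MP library held 0 and 1098, beside 79 of mmu-miR-28c.

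**Figure D4:**
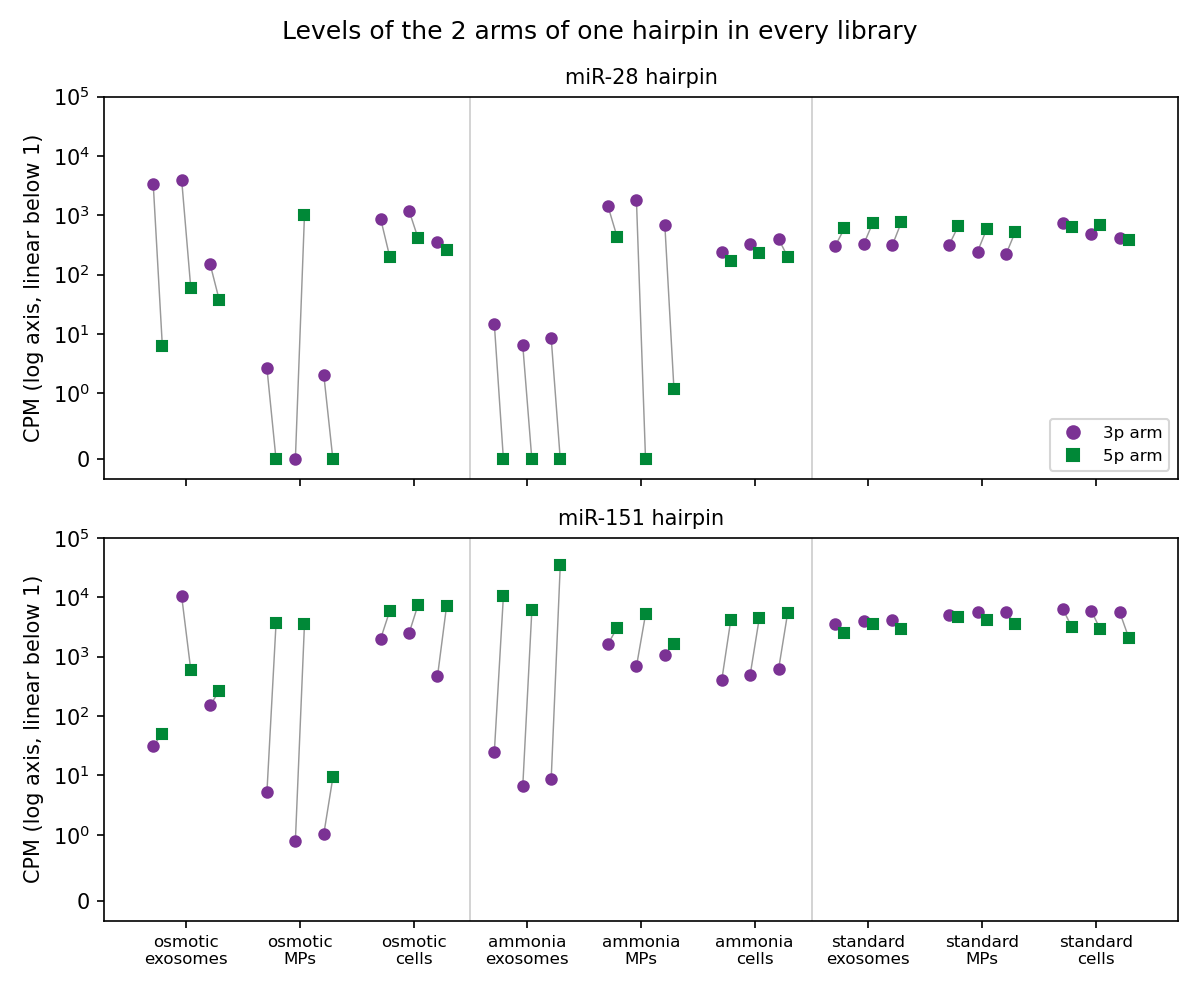
Level of the 3p and the 5p strand of the miR-28 and miR-151 hairpins in CPM, on a log axis that is linear below 1, species entries that name a strand summed; a grey line joins the strands of 1 library. The strands lie close together in standard libraries and far apart in single stressed vesicle libraries, such as the second osmotic MP library for miR-28 and the ammonia exosomes for miR-151.

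As a share of the reads of its hairpin, in libraries with at least 20 such reads, the miR-28 3p strand took 31.04% ± 2.51 in standard exosomes, 30.7% ± 1.60 in standard MPs and 49.4% ± 6.81 in standard cells (n = 3 each). All 6 vesicle libraries lay below the 3 cell libraries, and vesicles minus cells was −18.5 points. A two-sided exact permutation test gave p = 0.0238, the smallest p this design allows, and 0.0595 after adjustment over 5 tests, so it did not pass. The miR-151 3p strand took 56.5% ± 3.21 in standard exosomes, 57.1% ± 5.22 in standard MPs and 69.2% ± 3.37 in standard cells, with vesicles minus cells at −12.4 points and no overlap (exact permutation p = 0.0238, adjusted 0.0595). Depth differed between these groups, since the cell libraries held 120 to 214 reads of the miR-28 hairpin and the vesicle libraries 793 to 2946; its part was not tested. In ammonia culture the miR-28 3p strand took 92.1% ± 13.5 of hairpin reads in MPs and 61.1% ± 4.83 in cells, 31.1 points higher in MPs without overlap (exact permutation p = 0.1, the smallest possible with 3 against 3, adjusted 0.167). Exosomes had too few reads of it. The miR-151 3p strand took 0.121% ± 0.103 in ammonia exosomes, 28.7% ± 14.9 in ammonia MPs and 9.63% ± 0.773 in ammonia cells, so the vesicle fractions stood on either side of the cells, and the test of both together did not pass (14.4% ± 18.3 in 6 vesicle libraries, exact permutation adjusted p = 0.952). The miR-708 5p strand took at least 98.4% in every standard library; in ammonia culture it took 100% in 2 MP libraries and 95.5% ± 7.86 in cells (exact permutation adjusted p = 1.00). Shares in stressed and standard libraries were made with different kits and are not compared.

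Entries that name the same strand in another species are separate rows of the table, and the counting could split reads between them. In all, 10 other entries carry the names of the 3 hairpins, each with reads in at least 1 library. The mouse entry mmu-miR-28a-3p had 7 reads in all 27 libraries and hsa-miR-151a-3p had 76, so the hamster rows carried nearly all reads of those strands. For miR-708 the row without a strand name, cgr-miR-708, had 13448 reads, and it did not follow mmu-miR-708-5p in ammonia MPs: the libraries held 3, 1880 and 0 reads of cgr-miR-708 and 922, 615 and 5 of mmu-miR-708-5p. For the miR-28 5p strand, the second osmotic MP library held 1088 reads of mmu-miR-28a-5p and 10 of cgr-miR-28-5p, and the first ammonia MP library 1278 and 4. In ammonia cells the reads were 437, 511 and 259 of mmu-miR-28a-5p and 557, 1046 and 789 of cgr-miR-28-5p. So both species rows of that strand held reads in every ammonia cell library, while in these MP libraries nearly all of its reads fell in 1 row.

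Of the 10 entries 5 could be tested in standard culture and 6 in stressed culture. In standard MPs against cells 1 of 5 rose (cgr-miR-151-5p, +0.56 ± 0.20, adjusted p = 0.0424) and 0 fell, where 31.3% of all entries passed. In standard exosomes against MPs hsa-miR-151b rose (+1.23 ± 0.44, adjusted p = 0.04998) and cgr-miR-151-5p fell (−0.59 ± 0.20, adjusted p = 0.0342), where 29.6% of all passed. In osmotic MPs against cells 2 of 6 fell, cgr-miR-28-5p (adjusted p = 0.0249) and cgr-miR-708 (0.0334), with 10 and 2 reads in the MPs, beside 51.5% of all entries. The other row of the miR-28 5p strand, mmu-miR-28a-5p, did not pass there (+2.37 ± 2.42, edgeR adjusted p = 0.434). Its 1088 reads in osmotic MPs were all in the second library. The change of cgr-miR-151-5p in osmotic MPs against cells was −0.82 ± 1.25 (adjusted p = 0.598). In ammonia MPs against cells and in ammonia exosomes against cells cgr-miR-28-5p alone of the 6 was called, downward. It had 6 reads in the MPs and 0 in the exosomes. A count of 0 allows up to 6.32 CPM over the ammonia exosome group, against 133 ± 31.9 CPM in cells. The row mmu-miR-28a-5p had 1279 reads in ammonia MPs (+1.27 ± 2.34, edgeR adjusted p = 0.815), nearly all in the first library. In ammonia exosomes it had 0 reads. The sum of both rows of this strand was not tested. The shares over all entries were 32.5% for the MPs and 9.04% for the exosomes. In osmotic MPs against ammonia MPs 1 of 6 fell, cgr-miR-708, with 2 and 1883 reads, where 19.3% of all passed. In the other comparisons within the stressed kit 0 of 6 passed with edgeR.

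The other LINE-2-related miRNAs, miR-95 and miR-325, had 7 entries, 5 with reads. The human entry hsa-miR-95-5p had 0.9503 ± 0.885 CPM in standard exosomes, 8.48 ± 5.86 CPM in standard MPs and 246 ± 56.3 CPM in standard cells, and no read in any of the 18 stressed libraries. It fell in MPs against cells (−4.83 ± 0.59, adjusted p = 3.92e-05) and again in exosomes against MPs (−3.23 ± 0.72, 0.00531). The hamster entry cgr-miR-325-3p had 15.2 ± 8.97 CPM in standard exosomes, 29.6 ± 16.7 CPM in standard MPs and 40.0 ± 27.4 CPM in standard cells, with 18 reads in the cells and no passing difference. In stressed culture it had 274 reads in osmotic cells and none elsewhere.

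Over all 27 libraries the levels of the 3 entries followed each other to different degrees, as a description on the log2(CPM + 1) scale with depth and kit shared by the points. Pearson's r was 0.804 between both 3p strands, 0.824 for cgr-miR-151-3p with mmu-miR-708-5p and 0.604 for cgr-miR-28-3p with mmu-miR-708-5p. Within the 9 standard libraries the values were 0.388, 0.948 and 0.262 in that order. Among 215 entries with a mean of at least 50 CPM, the pattern nearest to cgr-miR-28-3p was that of cgr-miR-199a-3p (r = 0.865, n = 27), followed by mmu-miR-29a-3p (0.834) and cgr-miR-151-3p (0.804). For cgr-miR-151-3p the nearest were cgr-miR-7a (0.924), cgr-miR-27a-3p (0.895) and cgr-miR-409-3p (0.887), and for mmu-miR-708-5p cgr-miR-17-5p (0.901), cgr-miR-374-5p (0.863) and cgr-miR-27b-3p (0.857). Of these 9 likenesses 6 turned negative within the standard libraries, cgr-miR-27a-3p to −0.731, and the exceptions were cgr-miR-151-3p (0.388), cgr-miR-7a (0.365) and cgr-miR-374-5p (0.898).

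The authors' deposited table gives its own comparisons, and how many of all entries it calls in each was not counted. For cgr-miR-28-3p in ammonia exosomes against ammonia cells the authors' deposited table has a log2 fold change of −5.51 with a false discovery rate p of 3.57e-05, and for cgr-miR-151-3p −5.68 with 3.52e-05. For cgr-miR-28-3p in ammonia MPs against cells the authors' deposited table has +2.27 with 0.0451. For cgr-miR-151-3p in osmotic cells against ammonia cells it has +1.19 with 0.0159 in the authors' deposited table. For osmotic against ammonia exosomes the authors' deposited table has +7.20 with 0.00115 for cgr-miR-28-3p and +6.50 with 0.00272 for cgr-miR-151-3p. Both strands had been chosen with these osmotic libraries, and the second held 517 of the 526 reads of cgr-miR-151-3p. For ammonia MPs against exosomes the authors' deposited table has a false discovery rate p of 1.07e-09 for cgr-miR-28-3p, 8.51e-08 for cgr-miR-151-3p and 0.0351 for mmu-miR-708-5p. Against standard cells, for cgr-miR-151-3p, the authors' deposited table has 4.55e-07 in osmotic and 3.09e-17 in ammonia cells, and for mmu-miR-708-5p 0.0119 and 0.00344. None of these passed in edgeR's test above, whose directions were the same. The opposite held for cgr-miR-28-3p against standard culture, called above in ammonia MPs, osmotic exosomes and ammonia exosomes: the authors' deposited table has 0.0524, 0.0529 and 0.418 in that order. The authors' deposited table also calls mmu-miR-708-5p against standard exosomes, in osmotic (0.0186) and ammonia exosomes (0.0112), where edgeR did not. The standard exosome libraries had served in the choice of that entry.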

How the data were processed

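Counts per mature miRNA entry, as deposited by the authors, were used as they stand. Per the file headers, grouping was on the mature sequence, with trimming and a limit on length for stressed libraries. The submitters' processing notes name FastQC 0.10.1 and cutadapt 2.8, with GRCm38, Rnor_6.0 and GRCh38 as builds. Neither the counting tool nor the separation of the fractions is given in the sources used here. The deposited columns named CPM are a signal that the authors scaled by effective library sizes, used here for those sizes only. The authors' own log2 fold changes, with p-values as false discovery rates, come from a table they deposited, whose 54 columns of values per sample were not used. The table names 351 hamster, 1776 mouse, 405 rat and 2283 human entries.

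CPM was recomputed as the count over the library total. The main test was the quasi-likelihood F test of edgeR 4.0.16 after TMM scaling and filterByExpr (with limma 3.58.1, R 4.3.3), with DESeq2 1.42.0 as an alternative. Fits held 9 standard libraries (351 entries), 18 stressed ones (332) or all 27 (420), with a biological coefficient of variation of 0.301, 1.38 and 1.12 in that order; all 3 members passed the filter in each. The SE was derived from the F statistic. The fit was also run on simulated counts in which as many entries rose as fell, and its outcome is not given here. Such a run cannot show how the fit behaves where the median of all entries lies far from 0, as in osmotic MPs against cells. Ratios of few reads carry exact conditional binomial intervals and shares of a hairpin were compared by exact permutation in SciPy 1.17.1; a count of 0 allows 3 counts over the group total. The precision of a level follows the library totals, given with the results. Expected reads are the mean CPM of the culture's cells times the library total. P-values measure the spread between these libraries, which nothing ties to separate experiments beyond the label of biological replicate. Named entries are the 3 members, the other entries of their hairpins, miR-95 and miR-325, and the 3 entries most like each member. The members, lists and tests were chosen with earlier results of these data known. No table of miRNA sequences was used here, so none is printed. Alternatives were other scalings, filters, tools, fits, a replicate block, summed species entries and each library left out.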

Additional observations from a re-analysis of the deposited data

Results flagged for a closer look

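For both 3p strands, osmotic and ammonia vesicles stood in opposite order. The log2 ratio of the mean CPM of exosomes over MPs for cgr-miR-28-3p was 10.62 in osmotic culture and −7.02 in ammonia culture, 17.64 apart, and every osmotic exosome library lay above every osmotic MP library while every ammonia exosome library lay below every ammonia MP library. For cgr-miR-151-3p the ratios were 10.51 in osmotic culture and −6.42 in ammonia culture, 16.93 apart, again with no library out of order. The difference was not tested, because the osmotic ratio had chosen these entries. For cgr-miR-151-3p the osmotic exosome mean rests on the second library, at 10342 CPM, with the others at 31.5 and 150.9 CPM. The ratios rest on 3 and 4 reads in osmotic MPs and on 5 and 7 reads in ammonia exosomes.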

How the results depend on the processing

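Outside the stressed-against-standard comparisons, 424 recomputed values of single miRNAs kept their direction and their side of the threshold, 25 were no longer past it, 9 came past it and 19 turned sign. Counts of members past the test moved as follows, and ranges of the count over all entries are given below. With the authors' library sizes 1 of 3 passed in standard exosomes against MPs, beside 109 of all entries (104 in the main fit). With no filter on low counts 0 passed in osmotic MPs against cells, beside 17 of all entries (171 in the main fit). DESeq2 called 1 in osmotic exosomes against cells, 2 in ammonia exosomes against MPs, 2 in osmotic against ammonia exosomes, 1 in ammonia against standard exosomes and 2 in osmotic against standard MPs. Over all entries it called 18, 63, 34, 111 and 195 in the same order. A fit of the 2 groups alone called 1 in ammonia MPs against cells, 0 in osmotic against ammonia MPs and 2 each in osmotic cells, ammonia cells and osmotic exosomes against standard ones. With species entries of one name summed 2 passed in ammonia exosomes against cells and 1 against MPs. Beside them stood 74 and 10 of all entries (30 and 1 in the main fit). Against standard culture, RLE scaling gave 1 in ammonia cells and exosomes and 0 in ammonia MPs; library size alone gave 1 in ammonia cells and 0 in ammonia MPs and osmotic exosomes; TMMwsp scaling, the authors' sizes and no filter each gave 0 in ammonia MPs and 0 in ammonia exosomes. Leaving out 1 library, counts ran from 1 to 2 in standard exosomes against MPs, from 0 to 3 in osmotic MPs against cells and against ammonia MPs, from 0 to 1 in ammonia MPs and in osmotic exosomes against standard ones.

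With the replicate block 0 of 3 passed in osmotic against ammonia MPs (adjusted p = 0.0609, 0.0609 and 0.0812) and 0 in osmotic against standard exosomes, and over all entries 0 in place of 64 and 46 in place of 68. Over all entries it also gave 2 in place of 30 in ammonia exosomes against cells and 1 in place of 0 in osmotic against ammonia cells. The labels used here do not say whether the replicate number pairs the fractions. Deviations of same-numbered libraries correlated at −0.109 to 0.195, which cannot show whether such libraries came from the same culture.

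Signs turned as follows. In standard MPs against cells cgr-miR-151-3p stood at 0.0037 with the authors' sizes, 0.0022 without a filter and up to 0.12 without 1 library (from −0.19); mmu-miR-708-5p at 0.056, 0.049, 0.0098 with its arm's entries summed, an alternative added after the values were seen, and up to 0.13 (from −0.18). In ammonia exosomes against cells mmu-miR-708-5p stood at 0.48 with TMMwsp, 0.42 with the authors' sizes and 0.26 in the fit of 2 groups. In osmotic against ammonia exosomes it stood at −0.61 (RLE), −1.87 (TMMwsp), −1.75 (authors' sizes), −0.56 (no filter), −0.53 (DESeq2) and −0.79 to 1.05 without 1 library. In osmotic exosomes against cells cgr-miR-151-3p ran from −4.45 to 1.35 without 1 library. Arm shares in ammonia culture ran from −0.31 to 7.63 points for miR-151 and from 0 to 6.81 for miR-708 without 1 library. Counting hairpins with at least 1 read, the exact permutation adjusted p of the miR-28 and miR-151 shares in standard culture (−18.5 and −12.4 points) and of miR-28 in ammonia culture (35.01) was 0.0397. The ammonia test of miR-28 then took in exosome libraries with 3, 1 and 1 reads of the hairpin, each at 100%. The standard shares were the same as before, and only the adjustment over the tests moved for them.

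Among counts over all entries, that in osmotic MPs against cells (171) ran from 1 to 191, ammonia MPs against cells (108) from 7 to 111, ammonia exosomes against MPs (1) from 0 to 63 and against cells (30) from 1 to 74, osmotic against ammonia MPs (64) from 0 to 70, osmotic cells against standard (76) from 36 to 191, osmotic exosomes against standard (68) from 22 to 138 and ammonia exosomes against standard (139) from 45 to 177. In standard exosomes against MPs (104) the count ran from 54 to 119. It ran from 0 to 18 in osmotic exosomes against cells (0) and from 0 to 34 in osmotic against ammonia exosomes (0). Against standard culture it ran from 67 to 171 in ammonia cells (103), from 135 to 224 in ammonia MPs (188) and from 145 to 238 in osmotic MPs (194). Scaling moved the median of all entries tested by up to 3.51 on the log2 scale. Few reads in stressed vesicles and 63 to 104 reads of the scarcer miRNAs in standard cells limit the precision.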
